A study of Mus musculus with 90 samples.

Results

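A set of 10 genes known as targets of NRF2, the transcription factor of the antioxidant response, was followed in mouse liver: Gclc, Gclm, Slc7a11, Gsr, Txnrd1, Prdx1, Srxn1, Nqo1, Htatip2 and Osgin1. They were chosen by symbol, with earlier results of these data known, and are 10 of the 18223 genes in the tables. The livers came from 90 female J:DO mice of 6 to 20 weeks, an outbred stock in which every animal carries its own mixture of founder genomes, with 1 RNA sequencing library per animal. Vehicle, sterile distilled water, was given by mouth to 41 animals, and zileuton, an inhibitor of 5-lipoxygenase used against asthma, was given by mouth to 49 animals at 300 mg per kg. Both arms were dosed once daily for 7 days, and the series is titled as a study of how zileuton harms the liver. The vehicle arm held 29 agouti, 6 white and 6 black animals, and the zileuton arm 34, 9 and 6. Each value is therefore 1 bulk measurement of 25 mg of liver from a genetically distinct animal, in which fewer cells of a type and less RNA per cell cannot be told apart.

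NRF2, encoded by Nfe2l2, is held at a low level by KEAP1, which presents it for degradation. When reactive compounds modify KEAP1, NRF2 is spared, pairs with a small MAF protein in the nucleus and binds antioxidant response elements near its target genes. In liver these targets make and recycle glutathione, keep thioredoxin and peroxiredoxin reduced, and detoxify quinones, and several are used as markers of exposure to reactive drug metabolites.

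Every library held between 12664579 and 41360187 estimated counts, with medians of 26105475 in vehicle and 25083838 in zileuton animals, and the 10 members took 0.203% of the counts. All 8 hepatocyte markers looked for were detected, with summed levels of 98524 to 190778 CPM (counts scaled to library size) in vehicle and 77453 to 178320 CPM under zileuton. By the edgeR test described below, 5 of the 8 were called lower under zileuton. This share was above the 14.8% of all genes tested that were called lower. Animal numbers fell into 8 runs of 50, whose nature the labels do not give. Vehicle animals stood at positions 13 to 20 of a run and zileuton animals at positions 25 to 50, so position and treatment cannot be told apart. A clock score, the mean scaled level of 11 genes of the phase opposite to Bmal1 less that of 5 genes of the Bmal1 phase, was −1.32 ± 1.27 (SD, n = 41) in vehicle and 1.11 ± 1.17 (SD, n = 49) in zileuton animals. Clock genes of the liver cycle with the time of day, and the labels used here give no time of collection. The vehicle library numbered 8 held skeletal muscle transcripts at a summed 3286 CPM, where the median vehicle library held 0.0486 CPM, and 1 zileuton library held 1916 CPM.

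The core of the antioxidant response element was looked for in the promoters, taken as the 250 bases before each annotated start from the RefSeq table of build GRCm38.p6. That table gave 11 windows for 8 of the members. The core was written TGACNNNGC and searched on both strands. It was present before at least 1 start in 4 of these 8 members, Prdx1, Htatip2, Gclm and Txnrd1. Counted by window, as the background is, it was in 4 of the 11 windows, beside 10.2% of all 32851 promoters of that length. The letters TGAGTCAGC, which read TGAG where the pattern reads TGAC, were not counted. They are in the window of Srxn1 and, on the opposite strand, in that of Osgin1, and no background was computed for them. The 4 windows with a counted match are shown because they allow the letters to be read against the responses that follow. They lie at chr4:116685349-116685598 (+ strand) for Prdx1, chr7:49759262-49759511 (+ strand) for the second start of Htatip2, chr3:122245307-122245556 (+ strand) for Gclm and chr10:82858956-82859205 (+ strand) for the second start of Txnrd1. Capitals mark the core, which reads in the direction of the gene in Htatip2 and on the opposite strand in the other three.
Prdx1: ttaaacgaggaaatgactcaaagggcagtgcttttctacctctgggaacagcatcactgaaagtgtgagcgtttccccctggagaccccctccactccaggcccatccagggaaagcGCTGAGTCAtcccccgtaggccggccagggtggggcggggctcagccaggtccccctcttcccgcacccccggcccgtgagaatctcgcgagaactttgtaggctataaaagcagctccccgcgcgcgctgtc
Htatip2: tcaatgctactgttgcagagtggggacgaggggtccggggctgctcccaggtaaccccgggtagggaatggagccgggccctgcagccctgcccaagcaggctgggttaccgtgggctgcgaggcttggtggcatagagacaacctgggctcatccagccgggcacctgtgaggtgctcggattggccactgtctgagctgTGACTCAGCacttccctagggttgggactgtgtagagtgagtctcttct
Gclm: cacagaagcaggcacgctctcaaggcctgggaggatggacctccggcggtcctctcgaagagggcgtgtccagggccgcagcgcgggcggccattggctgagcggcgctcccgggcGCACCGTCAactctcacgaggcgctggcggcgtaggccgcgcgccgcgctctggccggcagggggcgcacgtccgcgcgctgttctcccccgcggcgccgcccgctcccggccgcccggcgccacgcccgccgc
Txnrd1: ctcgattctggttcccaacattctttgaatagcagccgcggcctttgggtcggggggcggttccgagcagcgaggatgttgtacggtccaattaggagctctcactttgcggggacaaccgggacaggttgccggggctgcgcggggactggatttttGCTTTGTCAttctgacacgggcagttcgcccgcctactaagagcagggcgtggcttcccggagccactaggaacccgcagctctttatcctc
The first base of the match lay 133 bases before the start in Prdx1, 49 in Htatip2, 134 in Gclm and 92 in Txnrd1. The core of Prdx1 and that of Htatip2 were the same letters, TGACTCAGC, read on opposite strands. The E-box CACGTG, the same on both strands, was in 0 of the 11 windows and in 6.02% of all promoters. These matches describe letters in a window of fixed length and do not show binding, and the absence of a match says nothing about the factor.

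The members did not move as one group under zileuton. Of 9 members with enough counts to be tested, 4 rose (Nqo1, Srxn1, Htatip2 and Prdx1), 1 fell (Osgin1) and 4 did not pass (Gclc, Gclm, Gsr and Txnrd1) by edgeR's quasi-likelihood test with Benjamini-Hochberg adjustment over 13248 genes. Over all genes tested 29.3% were called, 14.4% higher and 14.8% lower. The median log2 fold change of the 9 was 0.12, against −0.01 over all genes tested. The increases were small, between 1.14-fold and 1.37-fold, and the single decrease was to 0.514 of the vehicle level. Without the vehicle library that held muscle transcripts the counts were again 4 and 1.

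**Figure D1:**
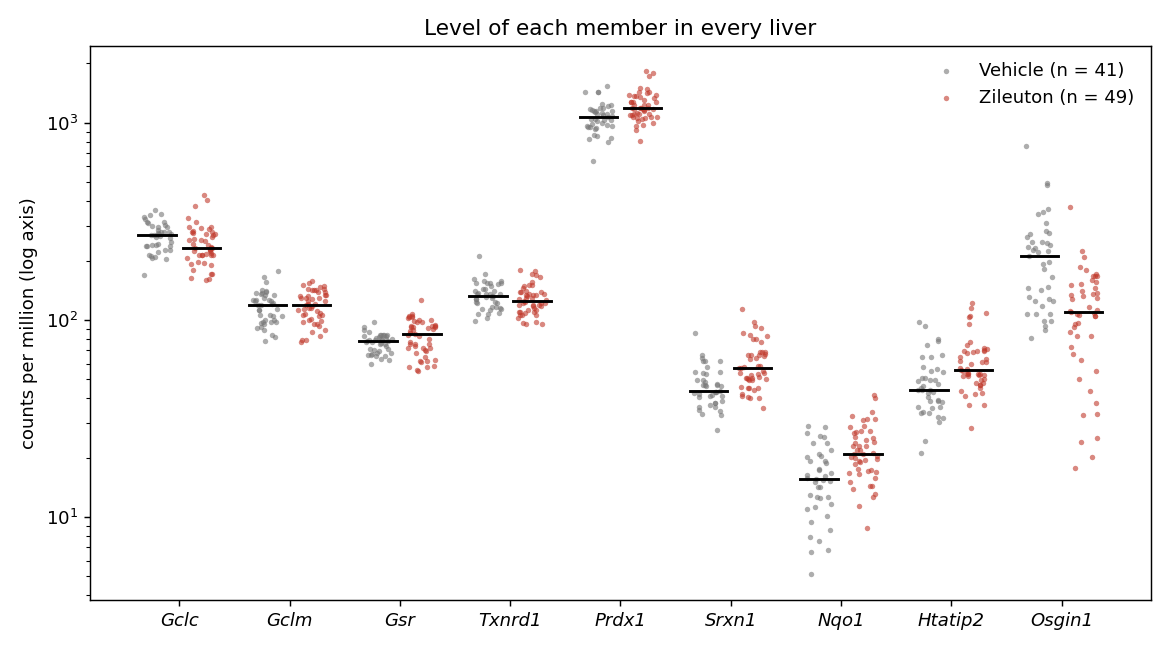
Level in CPM (log axis) of 9 members in each of 41 vehicle (grey) and 49 zileuton (red) livers; each point is an animal and black lines are medians. The arms overlap for every member; the median of Osgin1 drops from 211 to 109 CPM and that of Nqo1 rises from 15.6 to 20.7 CPM.

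Of the members that act in glutathione synthesis, Gclc and Gclm did not pass the test and Slc7a11 was too low to be tested. Gclc, the catalytic subunit of glutamate-cysteine ligase, which carries out the rate-limiting step of glutathione synthesis (chromosome 9, 77754535 to 77794485, GRCm38), ran from 170 to 362 CPM in vehicle animals with a median of 271, and from 160 to 429 CPM in zileuton animals with a median of 231. The arms overlapped almost fully, and 33 of 49 zileuton animals lay below the vehicle median. The log2 fold change was −0.12 ± 0.061 (SE), with unadjusted p = 0.0516 and adjusted p = 0.131 by edgeR. An approximate 95% interval, from a normal quantile and this SE, ran from −0.24 to −0.00076. It ends just short of 0, although the unadjusted p was above 0.05. With limma-voom in place of edgeR the same difference was called (−0.16, adjusted p = 0.0367), and with the clock score or the position in the run as a covariate it had the opposite sign (0.10 and 0.13).

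Gclm, the modifier subunit that raises the activity of the same ligase (chromosome 3, 122245557 to 122270732), ran from 78.4 to 177 CPM with a median of 118 in vehicle animals and from 77.6 to 157 CPM with a median of 119 in zileuton animals. The 2 arms overlapped almost fully. Its log2 fold change was 0.017 ± 0.057 (SE, adjusted p = 0.858 by edgeR) with an approximate 95% interval from −0.10 to 0.13. Slc7a11, the cystine importer that supplies cysteine for glutathione (chromosome 3, 49892526 to 50443614), was at or near 0 in these livers. It had a mean of 3.18 estimated counts per library, lay at 0 in 8 vehicle and 5 zileuton animals, and reached at most 0.562 CPM in vehicle and 0.498 CPM under zileuton. This level was below the filter for testing, and at this depth no difference was detectable. Part of its longest annotated transcript matched Tuba1a, Tuba1b and Tuba1c at 90% identity or more, so its few reads are uncertain. In a fit without the filter its log2 fold change was 0.14 ± 0.31 (SE, adjusted p = 0.808 by edgeR).

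Gsr, glutathione reductase, which returns oxidised glutathione to its reduced form at the cost of NADPH (chromosome 8, 33652523 to 33698163), ran from 59.4 to 97.1 CPM in vehicle animals with a median of 78.4. Under zileuton it ran from 55.2 to 125 CPM with a median of 84.3. The zileuton animals reached beyond the vehicle range on both sides, with 12 of 49 above the highest and 5 below the lowest vehicle animal. Its log2 fold change was 0.12 ± 0.051 (SE, adjusted p = 0.0760 by edgeR). With the run as a covariate it was called higher (0.14, adjusted p = 0.0131), and so it was without run 3 (adjusted p = 0.0148), run 4 (adjusted p = 0.00859) or run 7 (adjusted p = 0.0441).

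Of the members of the thioredoxin and peroxiredoxin system, Prdx1 and Srxn1 rose. Txnrd1, the cytosolic thioredoxin reductase, which passes electrons from NADPH to thioredoxin (chromosome 10, 82833951 to 82897712), did not pass the test: it ran from 98.5 to 211 CPM with a median of 132 in vehicle animals and from 95.5 to 179 CPM with a median of 124 in zileuton animals. Its log2 fold change was −0.067 ± 0.049 (SE, adjusted p = 0.316 by edgeR), with an approximate 95% interval from −0.16 to 0.03. Its reads may include some of Eid3, a gene that overlaps it and had a mean of 0.294 CPM.

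Prdx1, a peroxiredoxin that reduces hydrogen peroxide with electrons from thioredoxin (chromosome 4, 116685544 to 116700822), was the most abundant member. It ran from 641 to 1534 CPM with a median of 1075 in vehicle animals and from 811 to 1829 CPM with a median of 1185 in zileuton animals. The shift was small beside the spread between animals, and 37 of 49 zileuton animals lay above the vehicle median. It rose from 1074 ± 183 (SD, n = 41) to 1228 ± 209 CPM (SD, n = 49), a log2 fold change of 0.19 ± 0.052 (SE, adjusted p = 0.00244 by edgeR). Its count is uncertain in one respect: 3 processed pseudogenes in GENCODE M21 matched its transcript at 90% identity or more over at least 200 bases, and how reads shared with them were assigned is not given in the sources used here.

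Srxn1, sulfiredoxin, the enzyme that restores peroxiredoxins inactivated by overoxidation (chromosome 2, 152105516 to 152111376), ran from 27.7 to 85.8 CPM with a median of 43.5 in vehicle animals and from 35.7 to 113 CPM with a median of 57.2 in zileuton animals. Of the zileuton animals 43 of 49 lay above the vehicle median, although only 4 lay outside the vehicle range. Srxn1 rose from 46.6 ± 11.2 (SD, n = 41) to 60.7 ± 17.1 CPM (SD, n = 49), with a log2 fold change of 0.38 ± 0.077 (SE, adjusted p = 4.71e-05 by edgeR). With the clock score as a covariate neither it nor Prdx1 passed (adjusted p = 0.161 and 0.393), and with the position in the run the estimates were larger but again did not pass (adjusted p = 0.0542 and 0.0873).

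Among the members that act on quinones and on cell growth, 2 rose and 1 fell. Nqo1, a quinone reductase that converts quinones to hydroquinones and is the usual marker gene of NRF2 activity (chromosome 8, 107388225 to 107403206), ran from 5.10 to 28.9 CPM with a median of 15.6 in vehicle animals and from 8.81 to 41.5 CPM with a median of 20.7 in zileuton animals. Most of the range was shared, with 41 of 49 zileuton animals above the vehicle median and 7 above the highest vehicle animal. Its mean rose from 16.1 ± 6.21 (SD, n = 41) to 22.1 ± 7.03 CPM (SD, n = 49), a log2 fold change of 0.46 ± 0.11 (SE, adjusted p = 0.000616 by edgeR). With the clock score as a covariate its estimate was 0.072 ± 0.14 (SE, adjusted p = 0.850).

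Htatip2, an oxidoreductase also known as TIP30 or CC3 that was described as a tumour and metastasis suppressor (chromosome 7, 49759115 to 49773975), ran from 20.99 to 97.0 CPM with a median of 44.1 in vehicle animals and from 28.2 to 122 CPM with a median of 55.6 in zileuton animals. Again the ranges overlapped widely, and 42 of 49 zileuton animals lay above the vehicle median. The mean rose from 48.5 ± 17.2 (SD, n = 41) to 61.9 ± 20.6 CPM (SD, n = 49), a log2 fold change of 0.35 ± 0.098 (SE, adjusted p = 0.00355 by edgeR). Without run 2 it no longer passed (0.27, adjusted p = 0.0513).

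Osgin1, which encodes a growth inhibitor induced by oxidative stress, went the other way (chromosome 8, 119434124 to 119446256). It ran from 81.1 to 764 CPM in vehicle animals with a median of 211, and from 17.7 to 374 CPM in zileuton animals with a median of 109. In 47 of 49 zileuton animals it lay below the vehicle median, and in 13 it lay below the lowest vehicle animal. Osgin1 fell from 222 ± 133 (SD, n = 41) to 114 ± 63.9 CPM (SD, n = 49), with a log2 fold change of −0.96 ± 0.17 (SE, adjusted p = 6.80e-06 by edgeR). Among the 9 tested members it had the largest log2 fold change in either direction.

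Levels of different genes were set beside each other per kilobase of exon, on the scale of CPM per kb and as a description. In vehicle animals the order was Prdx1 (353 ± 60.1, SD), Osgin1 (83.1 ± 49.6), Gclc (70.9 ± 11.6), Gsr (27.8 ± 3.09), Htatip2 (23.96 ± 8.49), Txnrd1 (18.9 ± 3.07), Gclm (18.6 ± 3.58), Srxn1 (16.5 ± 3.97), Nqo1 (10.3 ± 3.998) and Slc7a11 (0.0088 ± 0.010). The ranges of mean ± SD overlapped between Osgin1 and Gclc and between each pair of neighbours from Gsr down to Nqo1. They did not overlap between Prdx1 and Osgin1, between Gclc and Gsr or between Nqo1 and Slc7a11. Nfe2l2 itself stood at 15.4 ± 2.27 and Keap1 at 13.9 ± 1.84 CPM per kb. Under zileuton Osgin1 dropped to 42.7 ± 23.9 CPM per kb, below the 65.2 ± 15.5 of Gclc, and Srxn1, at 21.5 ± 6.07, stood above Txnrd1 and Gclm, at 18.05 ± 3.000 and 18.8 ± 3.44. The ranges of mean ± SD overlapped in each of these comparisons.

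None of the 5 called members passed once a measure that follows the treatment groups was put in the model. With the clock score as a covariate 2.9% of all genes were called, against 29.3% without it, and 0 members passed. The estimate for Srxn1 was 0.26 ± 0.11 (SE), that for Htatip2 was 0.29 ± 0.15, that for Prdx1 was 0.12 ± 0.072 and that for Osgin1 was −0.58 ± 0.26, with adjusted p from 0.161 to 0.393 by edgeR. With the position in the run as a covariate 1.64% of all genes were called and again 0 members. There the estimates kept the direction and about the size they had without it for Nqo1 (0.43 ± 0.23), Htatip2 (0.44 ± 0.21) and Osgin1 (−0.84 ± 0.37), and were larger for Srxn1 (0.55 ± 0.16) and Prdx1 (0.34 ± 0.11), with wider errors. Positions do not overlap between the arms. The clock score follows the arms but overlaps, from −2.85 to 2.60 in vehicle and from −2.16 to 3.03 in zileuton animals. The part of the clock phase or of the position in these differences cannot be told apart from that of the drug.

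**Figure D2:**
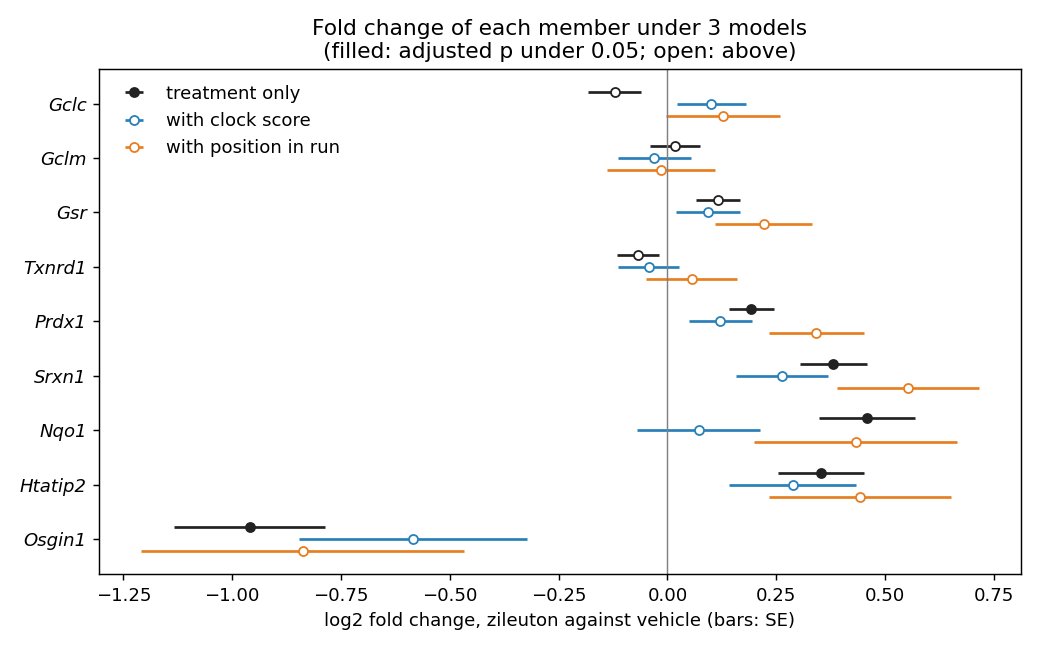
Log2 fold change of 9 members, zileuton against vehicle, with standard errors, in a model with treatment only (black), with the clock score (blue) and with the position in the run (orange); filled points have an adjusted p under 0.05. Osgin1 stays left of 0 in all 3 models, Nqo1 moves from 0.46 to 0.072 with the clock score, and no estimate with either covariate is filled.

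Within an arm, where the treatment is the same, the clock score went with few of the members. Of 20 relations (10 members in 2 arms), 2 had a Pearson r that passed adjustment, both among the 49 zileuton animals. Gclc was lower in animals with a higher score (r = −0.44, permutation p adjusted over the 20 = 0.0310, and rho = −0.49, adjusted p = 0.00780), and after subtracting run means r was −0.46. In vehicle animals the same relation of Gclc had rho = −0.44 (permutation test, adjusted p = 0.0436) and r = −0.36 (adjusted p = 0.0790). Nqo1 was higher in zileuton animals with a higher score (r = 0.40, permutation p adjusted = 0.0464), but its rho of 0.36 did not pass (adjusted p = 0.0721) and r was 0.19 after subtracting run means. Leaving out the 2 animals farthest from the median score gave r = −0.44 for Gclc and 0.39 for Nqo1. Within single runs of at least 6 zileuton animals r ran from −0.98 to 0.21 for Gclc and from −0.60 to 0.47 for Nqo1. Among vehicle animals Osgin1 and Nqo1 had r = −0.37 and 0.38 with the score, neither of which passed (permutation test, adjusted p = 0.0790 for both).

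The direction within runs of animal numbers was the same throughout for 3 members. Nqo1 was higher in zileuton than in vehicle animals in 8 of 8 runs, by 0.06 to 1.34 in mean log2 CPM, and Srxn1 in 8 of 8 runs, by 0.04 to 0.92. Osgin1 was lower in 8 of 8 runs, by −1.31 to −0.06. Prdx1 was higher in 7 of 8 runs, the exception being run 4 at −0.07, and Htatip2 in 7 of 8, the exception being run 7 at −0.39. For the members that did not pass, the direction was mixed: Gsr was higher in 5 runs, Gclm in 4, and Gclc and Txnrd1 in 3.

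Runs 3, 4 and 7 held the lowest differences of Srxn1 and Gsr. In run 4, with 5 vehicle and 12 zileuton animals, Nqo1, Srxn1, Gsr and Prdx1 differed by 0.06, 0.04, −0.09 and −0.07 in mean log2 CPM, while Osgin1 was at −1.31, its lowest of the 8 runs. In run 2, with 6 vehicle and 7 zileuton animals, the same 4 members differed by 1.07, 0.92, 0.33 and 0.36. The test of whether the treatment difference itself varied between runs, an interaction in edgeR, called 0.189% of all genes and 0 members. Its lowest values among the members were adjusted p = 0.104 for Srxn1 and 0.169 for Gsr (unadjusted p = 0.00120 and 0.00415). Nqo1 and Htatip2 had unadjusted p = 0.0229 and 0.0469 by the same test, and the other tested members were above 0.05. Of all 13248 genes tested, 1479 had an unadjusted p under 0.05.

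**Figure D3:**
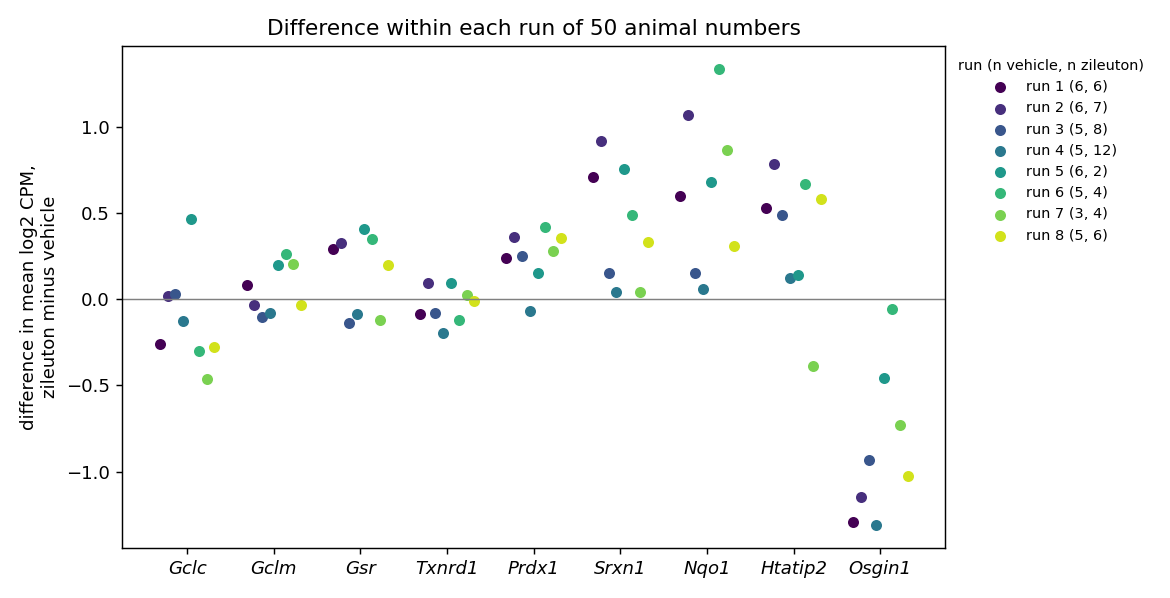
Difference in mean log2 CPM, zileuton minus vehicle, of 9 members in each of 8 runs of 50 animal numbers (1 point a run, coloured by run; the legend gives the animals per arm). All 8 points lie above 0 for Nqo1 and Srxn1 and below 0 for Osgin1, and the points of Gclc, Gclm, Gsr and Txnrd1 lie on both sides.

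No member was called between coat colours, the other label that differs between the animals. In a fit with treatment as a term, 0 of 9 members were called between 15 white and 63 agouti animals, where 0.00755% of all genes were called (1 gene; 927 genes had an unadjusted p under 0.05 by edgeR). Between 12 black and 63 agouti animals 0 of 9 were called as well, where 0.0453% of all genes were called (6 genes; 865 with an unadjusted p under 0.05). The largest estimate was that of Nqo1 for black coats, with means of 23.9 ± 9.31 CPM in black (SD, n = 12) and 18.7 ± 6.99 CPM in agouti animals (SD, n = 63), a log2 difference of 0.38 ± 0.15 (SE, adjusted p = 0.690 by edgeR). Htatip2 and Srxn1 followed at 0.29 ± 0.14 and 0.23 ± 0.11 (SE) for black coats, with adjusted p of 0.744 and 0.750 by edgeR. Fitted within an arm, Srxn1 had 0.44 ± 0.13 (SE) in vehicle animals alone and 0.0057 ± 0.17 in zileuton animals alone, and Htatip2 had 0.45 ± 0.19 and 0.12 ± 0.19, none of which passed (lowest adjusted p = 0.216 by edgeR). Within the zileuton animals alone 0 members were called for white coats, where 0.352% of genes were, and 0 for black coats, where 0.00718% were. Srxn1 lies 2.68 Mb from the nonagouti gene on chromosome 2. The test of whether the treatment difference itself varied with coat colour called 0 members (interaction in edgeR, lowest adjusted p = 0.922) and 0 of all genes, of which 737 had an unadjusted p under 0.05.

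No member passed the test for a change in spread between animals, which called 0.0337% of 11857 genes (0.0253% as wider under zileuton). Gsr came closest: its mean absolute deviation from the arm median was 0.13 in vehicle and 0.25 in zileuton animals on the log2 CPM scale, a difference of 0.12 ± 0.030 (SE, adjusted p = 0.105 by limma, unadjusted p = 0.000106). Among the 9 tested members Osgin1 had the widest spread on this log2 scale in both arms, 0.61 and 0.70, and the difference between these did not pass (adjusted p = 0.887 by limma). For Nqo1 the spread was 0.47 in vehicle and 0.36 in zileuton animals (adjusted p = 0.695 by limma).

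Levels of several members went together from animal to animal. Pairwise correlations of log2 CPM were computed within each arm, 45 pairs in each and 90 in all, with permutation p-values adjusted over the 90. The share of all gene pairs that would pass the same test was not computed, so these counts have no background beside them. Except for Htatip2, the gene nearest each tested member lay outside the set, as ranked below. Among the 49 zileuton animals 14 of 45 pairs passed by Pearson r, all with a positive r (highest adjusted p = 0.0242), and 12 of these passed by Spearman rho too. The strongest was Srxn1 with Gsr (r = 0.75, rho = 0.79), followed by Nqo1 with Gsr (r = 0.68, rho = 0.73), Gsr with Prdx1 (r = 0.64, rho = 0.61) and Nqo1 with Srxn1 (r = 0.63, rho = 0.62), and each of these 4 had the smallest p that 100000 permutations can give, 1e-05. Without the 2 animals farthest from the median of the first-named gene, r was 0.76, 0.70, 0.65 and 0.65. After subtracting run means r was lower, at 0.48, 0.47, 0.49 and 0.41. Over zileuton animals of single runs, in the 5 runs with 6 or more, r ran from 0.30 to 0.59, from −0.08 to 0.90, from 0.07 to 0.60 and from 0.13 to 0.52.

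Among the 41 vehicle animals 6 of 45 pairs passed by r, again all positive (highest permutation p, adjusted, of 0.0253), and 3 of these by rho. They were Nqo1 with Prdx1 (r = 0.56, rho = 0.54), Gsr with Htatip2 (0.47, 0.49) and Gclc with Osgin1 (0.44, 0.44), and by r alone Nqo1 with Srxn1 (0.46), Srxn1 with Gsr (0.44) and Nqo1 with Gsr (0.43). Without 2 animals chosen as before, the r of these 6 pairs lay between 0.30 and 0.46, and after subtracting run means between 0.39 and 0.59. Within the 3 runs of at least 6 vehicle animals r was above 0 in 3 of 3 for 5 of the pairs and in 1 of 3 for Nqo1 with Gsr. Nqo1 and Gsr each stood in 3 of the 6 vehicle pairs, and Srxn1 stood in 6 and Gsr in 5 of the 14 zileuton pairs. Gclm and Osgin1 were outside the group of Gsr, Srxn1, Nqo1, Prdx1 and Htatip2: under zileuton they passed only with each other (r = 0.46, rho = 0.41). Over the 36 pairs without Slc7a11 the median r was 0.07 in vehicle and 0.25 in zileuton animals, and after subtracting run means it was 0.12 and 0.14. Whether correlations differ between the arms was not tested.

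**Figure D4:**
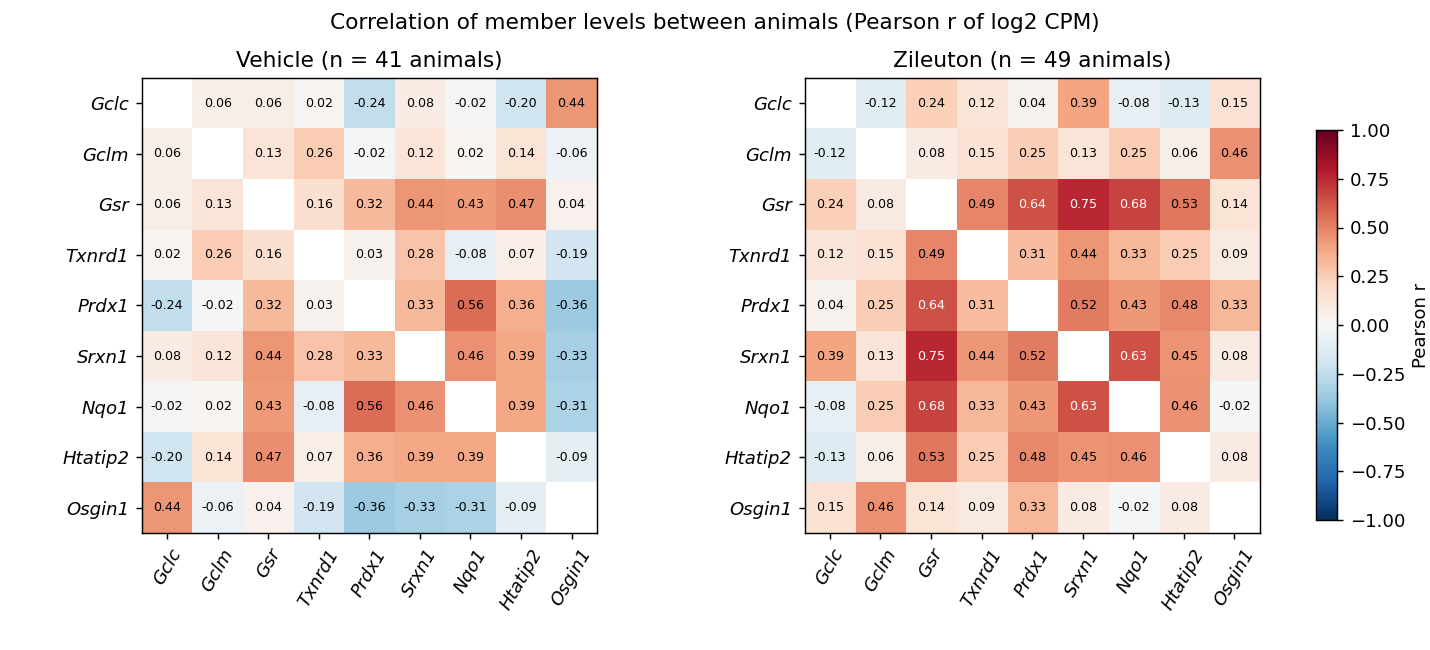
Pearson r of log2 CPM between 9 members over 41 vehicle animals (left) and 49 zileuton animals (right), with the value in each cell. Gsr, Srxn1, Nqo1, Prdx1 and Htatip2 form a block of positive values in both arms, reaching 0.75 for Srxn1 with Gsr under zileuton.

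The genes whose levels were most like each member's were ranked by Pearson r of log2 CPM over all 90 animals after subtracting the arm means, among 11856 genes. These are descriptions, since all genes of an animal share 1 library. Nearest to Nqo1 were Creg1 (r = 0.68), Entpd5 (0.66) and Abhd4 (0.63). Those nearest to Srxn1 were Entpd5 (0.72), Psmd14 (0.72) and Arpp19 (0.69), with Gsr at rank 5, and those nearest to Gsr were Psmd14 (0.73), Psmd11 (0.72) and Psmd1 (0.69), with Srxn1 at rank 9. Skp1a (0.70), Pomp (0.70) and Akr1a1 (0.69) were nearest to Prdx1. Htatip2 was the member whose nearest gene was another member, Gsr (0.48), before Psma7 and Timm8a1 (0.46 each). Osgin1 stood nearest to Tnfaip2 (0.77), Foxa1 (0.61) and Id2 (0.60), and its best ranked member, Gclm, came at rank 689. For Gclc they were Stt3b (0.54), Xk (0.52) and Bet1 (0.51), for Gclm Tmem56 (0.54), Acot3 (0.41) and Nceh1 (0.40), and for Txnrd1 Ywhag (0.52), Pde3b (0.51) and Rad23b (0.50).

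Nfe2l2 and Keap1, the transcription factor and its repressor, did not pass the test. Nfe2l2 had means of 58.5 ± 8.60 CPM in vehicle (SD, n = 41) and 57.7 ± 9.37 CPM in zileuton animals (SD, n = 49), a log2 fold change of −0.019 ± 0.047 (SE, adjusted p = 0.803 by edgeR). Keap1 had 65.4 ± 8.65 and 68.1 ± 9.24 CPM, a log2 fold change of 0.059 ± 0.041 (SE, adjusted p = 0.292). Transcript levels of Nfe2l2 do not measure the protein, whose stability KEAP1 controls. Of 14 regulators, 4 rose, 1 fell and 9 did not pass, with a median log2 fold change of 0.07. This share, 5 of 14, is near the 29.3% called over all genes. Maff and Mafk, small MAF proteins that pair with NRF2, rose by 0.91 ± 0.16 (SE, adjusted p = 4.79e-06, higher than the vehicle median in 45 of 49 animals) and 0.38 ± 0.056 (adjusted p = 7.84e-08, in 46 of 49). Bach1, which competes with NRF2 for the same elements, rose by 0.37 ± 0.069 (SE, adjusted p = 9.85e-06 by edgeR). Cul3, the ligase scaffold that works with KEAP1, rose by only 0.077 ± 0.028 (SE, adjusted p = 0.0284 by edgeR). Sqstm1, p62, which binds KEAP1, fell by 0.21 (SE 0.046, adjusted p = 0.000131 by edgeR).

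Around the members, lists of glutathione, thioredoxin, NADPH and superoxide genes were counted beside the 29.3% called over all genes (14.4% higher, 14.8% lower). Of 21 tested genes of glutathione synthesis and use 5 rose, 5 fell and 11 did not pass (median −0.04). Gss, glutathione synthetase, the enzyme after the ligase of Gclc and Gclm, was named after its values were seen: it fell by 0.26 (SE 0.060, adjusted p = 0.000409 by edgeR), with 43 of 49 zileuton animals below the vehicle median. Gpx7 and Gpx4, glutathione peroxidases, rose by 0.75 ± 0.13 and 0.36 ± 0.060 (SE), while Cbs and Cth, which make cysteine from homocysteine, had log2 fold changes of −0.63 ± 0.065 and −0.43 ± 0.12 (SE). Of 18 thioredoxin and peroxiredoxin genes 6 rose and 12 did not pass (median 0.02), led by Sesn2, a stress-induced sestrin, at 0.43 ± 0.078, and Prdx3, the mitochondrial peroxiredoxin, at 0.27 ± 0.054. Of 16 genes of NADPH supply and the pentose phosphate pathway 3 rose, 1 fell and 12 did not pass (median 0.07). Among these Me1, malic enzyme, rose by 0.39 ± 0.12 and Tkt, transketolase, by 0.30 ± 0.052, and Rpia, of the pentose phosphate pathway, had −0.30 ± 0.068. Of 7 superoxide and peroxide enzymes, Xdh alone rose, by 0.22 ± 0.074 (SE). The called shares of the thioredoxin, NADPH and superoxide lists, 6 of 18, 4 of 16 and 1 of 7, were near or below that of all genes. That of the glutathione list, with 5 higher and 5 lower of 21, was above it. The thioredoxin genes called were all higher, 6 of 18 where 14.4% of all genes were called higher.

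A larger shift was seen in 36 other genes described as NRF2 targets, mostly conjugating enzymes and exporters. Of these 24 rose and 12 did not pass, where 14.4% of all genes were called higher. Their median log2 fold change was 0.40. The list was chosen with earlier results of these data known. Its shares, here and under the covariates below, are therefore descriptions and not an independent test. Gstm3 and Gstp2, glutathione transferases, rose by 1.85 ± 0.39 and 1.70 ± 0.46 (SE). Means of Gstm3 were 77.4 ± 146 CPM in vehicle (SD, n = 41) and 278 ± 316 CPM in zileuton animals (SD, n = 49). Those of Gstp2 were 15.1 ± 17.7 and 49.04 ± 53.8 CPM, and the SD exceeded the mean in each arm for both genes. Of 49 zileuton animals, 40 and 36 were higher than the vehicle median of Gstm3 and Gstp2. Both belong to multigene families, and how reads shared between family members were assigned was not tested. Many genes of this list are also known as targets of other drug-sensing receptors, whose part was not tested. With the clock score as a covariate 9 of the 36 passed, where 2.9% of all genes did, and the median was 0.22. With the position in the run 8 passed, where 1.64% of all genes did, and the median was 0.49. All of these were higher. Under those covariates 0 of the 14 regulators passed, and over the glutathione, thioredoxin, NADPH and superoxide lists 5 and 4 genes passed. With the clock score 2 of 21 glutathione genes fell, and of 18 thioredoxin genes 2 rose and 1 fell. With the position in the run 2 of 21 glutathione genes and 2 of 16 NADPH genes rose.

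**Figure D5:**
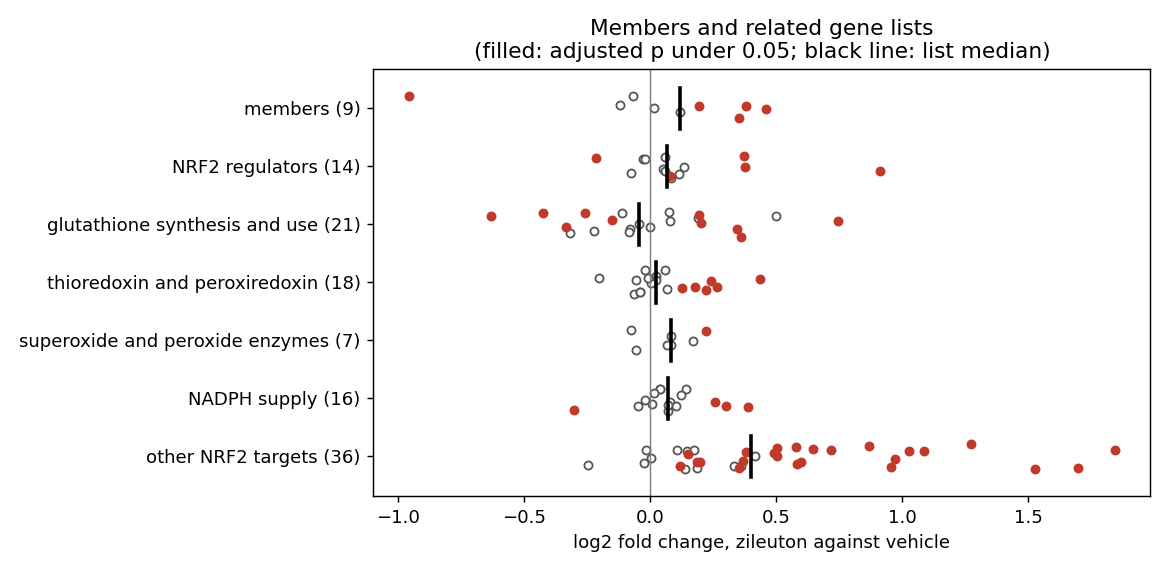
Log2 fold change, zileuton against vehicle, of the 9 tested members and of 6 related gene lists (number of genes tested in brackets); each point is a gene, filled where the adjusted p is under 0.05, and black lines are list medians. The members scatter on both sides of 0, while the other NRF2 targets lie mostly to the right with a median of 0.40.

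Markers of other liver cells were called at shares near or below the 29.3% of all genes. Of 10 Kupffer cell markers 0 passed, of 9 endothelial markers 1 fell, of 10 stellate markers 1 rose and 2 fell, of 7 lymphocyte markers 2 fell, and of 5 cholangiocyte markers and of 5 neutrophil and monocyte markers 1 fell each. Skeletal muscle, adipose and pancreas markers did not pass the filter for testing. The summed muscle level had a median of 0.0486 CPM in vehicle and 0.0927 CPM in zileuton libraries, and a highest of 3286 and 1916 CPM. Beside the members, the summed level of the Kupffer markers ran from 52.2 to 903 CPM in vehicle and from 93.8 to 609 CPM under zileuton. The part of cell composition in the members' differences was not tested.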

How the data were processed

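The deposited raw table holds expected counts (estimated counts per gene and animal, of which 76.7% were whole), and the second deposited table holds a signal in which the authors divided each animal's rounded counts by 1 size factor (ratio constant within 5.02e-06 above 50 counts). Per the submitters' processing notes, Partek, STAR, DESeq2 and the build mm10 were used. How reads were counted, on which annotation and with which strand setting is not given in the sources used here, nor are versions. Libraries were made with TruSeq v2 and read on an Illumina HiSeq, and RNA integrity numbers were at least 8, per the labels' protocols.

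Counts were rounded and fitted with edgeR 4.0.16 (R 4.3.3; quasi-likelihood F test, TMM, robust dispersion, filterByExpr), two-sided, over all 90 animals with treatment as the only term. Calls used a Benjamini-Hochberg adjusted p under 0.05 over the 13248 genes tested, where the common biological coefficient of variation was 32.1%. Values are CPM. With 1 library per animal, the p-values of the fits set a difference between groups against the spread between animals. The models were tested on simulated counts. Spread was tested with limma 3.58.1 (genes with mean log2 CPM of at least 0, prior count 2), and correlations with 100000 permutations. Coordinates and exon lengths come from GENCODE M21. No library was a copy of another (lowest chi-square between 2 libraries 47.9 per gene).

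Alternatives covered scaling, filter, tool (DESeq2 1.42.0, limma-voom), the authors' normalized values, covariates, and left-out libraries and runs. Counts per gene list under other settings were added after seeing the data. The members, lists, clock score and tests were chosen with earlier results of these data known. Besides the members, Nfe2l2 and Keap1, the genes named in a list are the 2 largest changes in each direction among those called with a mean of at least 1 CPM, and the 3 genes nearest each member; Bach1, Cul3 and Gss were named after their values were seen.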

Additional observations from a re-analysis of the deposited data

How the results depend on the processing

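Of the 9 members tested, Nqo1, Srxn1, Htatip2, Prdx1 and Osgin1 kept their direction under every alternative run, and Nqo1, Srxn1, Prdx1 and Osgin1 kept their call under all but 2 of them. With the clock score as a covariate 384 genes and 0 members were called, and with the position in the run 217 genes and 0 members. Htatip2 lost its call in addition without run 2. With the clock score Gclc had 0.10 and Gclm −0.030, and with the position in the run Gclc had 0.13, Gclm −0.016 and Txnrd1 0.056, each with a sign opposite to that without the covariate. Gclm also changed sign with the library code row and column as covariates (−0.015), without the 9 libraries of lowest total (−0.0053), without run 5 (−0.0035) and without run 6 (−0.0047). The cause was not tested. Leaving out each of the 90 libraries in turn gave log2 fold changes of 0.43 to 0.49 for Nqo1, 0.36 to 0.41 for Srxn1, 0.18 to 0.21 for Prdx1, 0.32 to 0.39 for Htatip2, −1.03 to −0.87 for Osgin1, 0.10 to 0.13 for Gsr, −0.14 to −0.11 for Gclc, 0.0059 to 0.036 for Gclm and −0.079 to −0.047 for Txnrd1; the 5 called members were called in 90 of 90 such fits, Gsr in 6 and the other three in 0.

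Between coat colours no member was called under any alternative, but signs changed. For white against agouti the vehicle animals alone gave Nqo1 0.16, Srxn1 0.13, Txnrd1 −0.098, Osgin1 0.046 and Gsr −0.021, the zileuton animals alone gave Gclc −0.020, and the run as a covariate gave Nqo1 0.037, Srxn1 0.012 and Osgin1 0.12. For black against agouti the vehicle animals alone gave Gclm −0.062 and the zileuton animals alone Txnrd1 −0.048. No paired analysis was possible because the labels give the animals of the 2 arms no shared replicate numbers. At these depths counting error was small beside the spread between animals for every member except Slc7a11.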
